A study of Mus musculus with 14 samples.

Results

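The liver transcriptome of Ythdf1 knockout mice was compared between mice given concanavalin A and mice given saline. The comparison used the 4 libraries labelled Ythdf1 knockout and ConA and the 3 libraries labelled Ythdf1 knockout and saline, which are 7 of the 14 liver libraries in the series. All mice were 8 weeks old. ConA mice received 8 mg/kg ConA through the tail vein and saline mice received the vehicle by the same route, and whole livers were taken after 8 h. The knockout mice were Ythdf1-/- on the C57BL/6 background, made by CRISPR/Cas9 editing, so that the gene was disrupted in every cell of the body, and they are called KO here. The other 7 libraries came from wildtype (WT) mice, 3 given saline and 4 given ConA, and they enter below only where the response of the genotypes was compared. Each library was described by the study as an independent biological sample.

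Concanavalin A is a plant lectin that binds sugars on cell surfaces and activates T cells. Injected into the blood it causes an acute hepatitis in which interferon gamma, tumor necrosis factor and infiltrating leukocytes injure hepatocytes, while hepatocytes turn to the production of acute-phase proteins. YTHDF1 is a cytoplasmic protein that reads N6-methyladenosine (m6A), a methyl mark on messenger RNA. It is known for promoting the translation of marked transcripts.

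Expression was given as TPM, the number of transcripts of a gene scaled to a fixed total, so that a value is a share of the library's transcripts corrected for transcript length. Changes are differences of group means of log2(TPM + 1), ConA minus saline, which understate the change of genes below about 1 TPM. A gene was tested when it reached 1 TPM in at least 3 of the 7 KO libraries, and it was called when the adjusted p of limma was under 0.05. By this rule 10988 of 17656 genes were tested. The files hold no read counts, so depth was unknown and the only error is the spread between mice. Since whole liver was sequenced, fewer cells of a type and less RNA per cell cannot be told apart.

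The libraries were first compared with their labels. Ythdf1 was listed at 20.8, 18.4 and 18.6 TPM in KO saline and at 25.9, 26.2, 15.5 and 21.3 TPM in KO ConA, against 12 to 13.9 TPM in WT saline. The gene-level value therefore did not fall in the knockout, and it does not check the genotype, because a deletion of part of a gene can leave most of its transcript countable. The ConA change of Ythdf1 was 0.17 ± 0.18 (SE) on the log2 scale with an adjusted p of 0.419. The Y-linked genes Ddx3y and Eif2s3y, which male tissues generally express, reached at most 0.02 and 0.07 TPM in any of the 14 libraries. Cyp2b13 and Cyp2b9, P450 genes known to be higher in female mouse liver, were listed at 20 to 212 and 49 to 202 TPM in the KO libraries, and the male-predominant Cyp4a12a at 0.33 TPM or less. The study speaks of male mice while the sample labels give no sex, and this difference was not resolved. A further Y-linked gene, Uty, was listed at 0.87 to 2.12 TPM over the 14 libraries. Ddx3y and Eif2s3y were near 0 in every group, whereas Cyp2b13 and Cyp2b9 fell after ConA as described below. These genes were chosen after their values were seen.

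ConA separated the KO libraries along the first principal component, which held 86.6% of the variance. The saline libraries lay between -75.5 and -69.9 and the ConA libraries between 51.7 and 57.0. The second component held 6.54% and placed KO ConA 3 at -35.3, against -4.71 to 23.1 for the other ConA libraries. KO ConA 3 also differed most from its group, with a median absolute log2 ratio to the other ConA libraries of 0.30 to 0.45. Its median ratio to the geometric mean of the 14 libraries was 0.85, against 0.98 to 1.19 in the other KO ConA libraries. A typical gene thus read lower in KO ConA 3, so that a low value there is not by itself particular to a gene or list. KO saline 1 carried 17017 TPM of hemoglobin transcripts, against 2749 and 4319 TPM in the other saline libraries and 810 to 3710 TPM in KO ConA, and the part of blood content in the results was not tested.

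After ConA, 7099 of the 10988 tested genes were called (64.6%). Of these, 3723 genes rose (33.9% of those tested) and 3376 fell (30.7%). A change of at least 1 on the log2 scale together with the call was found for 1724 genes that rose (15.7%) and 1729 that fell (15.7%). Changes of 2 or more were more often rises, with 499 genes higher and 387 lower, and the largest were also rises. The filter bears on this, since 525 tested genes were below 1 TPM in every saline library and 312 in every ConA library. Such genes were tested only through the other group, in which 3 of 4 ConA libraries or all 3 saline libraries had to reach 1 TPM. 45 called genes rose by 5 or more, while 13 called genes fell by 4 or more. The median change of all tested genes was 0.07. The saline and ConA libraries did not overlap in TPM for 7064 tested genes (64.3%), so that non-overlapping groups were common. Without KO ConA 3, 7814 genes were called (71.8%), 4440 of them higher (40.8%) and 3374 lower (31%). These shares are the background against which the gene lists below have to be read, since a list with like shares of its genes called would look like any other set of genes.

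The balance between rises and falls depended on the filter and on how the libraries were scaled. With no filter 17187 genes were tested, of which 4001 were called higher and 4049 lower. TPM is a share, and the acute-phase genes described next took up a large part of the ConA libraries. When each library was rescaled over all other genes, the median change rose to 0.46, and 7811 genes were called (71.1%), 5542 higher (50.4%) and 2269 lower (20.6%). Under median-ratio rescaling 7659 genes were called (69.7%), of which 3956 were higher (36%) and 3703 lower (33.7%). Directions below are those of TPM, and each gene list whose leading direction turned under either rescaling is named where it is described.

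The clearest response was that of the list of acute-phase genes, most of which encode plasma proteins that hepatocytes secrete in inflammation. The list also holds genes of other kinds, such as Steap4, Cd14 and the metallothionein genes Mt1 and Mt2. The 28 listed genes together made up 2.34% to 3.51% of all transcripts in KO saline and 28.5% to 29.5% in KO ConA. All 28 were tested, 1 of them only through its ConA level, and 26 rose and none fell. The median change was 2.85, against 0.07 for all tested genes. Saa2, a serum amyloid A gene that is carried on high-density lipoprotein, showed the largest rise on this scale of all genes named by rule. It was listed at 47.8, 77.4 and 51.4 TPM in KO saline and at 48570, 47863, 50406 and 50748 TPM in KO ConA, a change of 9.72 ± 0.17 (SE; adjusted p = 3.7e-11). The groups lay far apart and the 4 ConA libraries were close to each other. Saa2 replaced albumin as the most abundant transcript in each of the 4 KO ConA libraries.

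**Figure D1:**
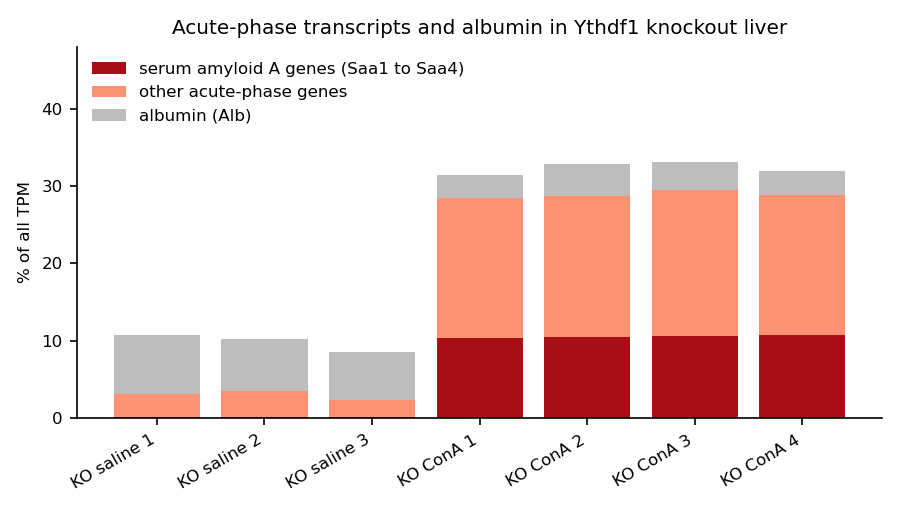
Share of all TPM (vertical axis, percent) held by the serum amyloid A genes, the other listed acute-phase genes and albumin in each of the 7 KO libraries (horizontal axis), stacked from 0. Serum amyloid A genes rose from at most 0.047% in KO saline to between 10.4% and 10.7% in KO ConA, and albumin fell from 6.23% to 7.65% down to 3.03% to 4.23%.

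Saa1 rose from 56.8, 124 and 59.9 TPM to 34310, 34422, 36438 and 36585 TPM, a change of 8.86 ± 0.23. Saa3, which is also made outside hepatocytes, rose from 48.2, 92.9 and 73.1 TPM to 20390, 21948, 18685 and 19126 TPM, a change of 8.16 ± 0.19. Saa1 and Saa2 are near copies, and 67.9% and 68.2% of the 50-base stretches of their longest transcripts occur in no other gene, so that their split with 50-base reads is uncertain while their sum is less so. Lcn2, which encodes the iron-siderophore binding protein lipocalin-2, rose from 39.7, 95.6 and 26.0 TPM to 12011, 12948, 12686 and 11404 TPM (8.02 ± 0.33). Steap4, an iron and copper reductase, rose from 16.2 to 22.4 TPM to between 2057 and 2575 TPM (6.89). Cd14, the co-receptor for bacterial lipopolysaccharide, rose from 0.98 to 1.45 TPM to between 228 and 372 TPM (7.08). The fibrinogen chain gene Fga rose by 3.72 and the orosomucoid gene Orm2 by 3.20. These 3 smaller examples were chosen after their values were seen, as were the next 2 genes. The list members that were not called were Saa4, a constitutive serum amyloid gene (166 to 223 TPM against 151 to 327 TPM, adjusted p = 0.319), and Hamp, which encodes the iron hormone hepcidin (3038 to 7826 TPM against 6321 to 14752 TPM, adjusted p = 0.0919). Both were called higher after rescaling without the acute-phase genes.

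**Figure D2:**
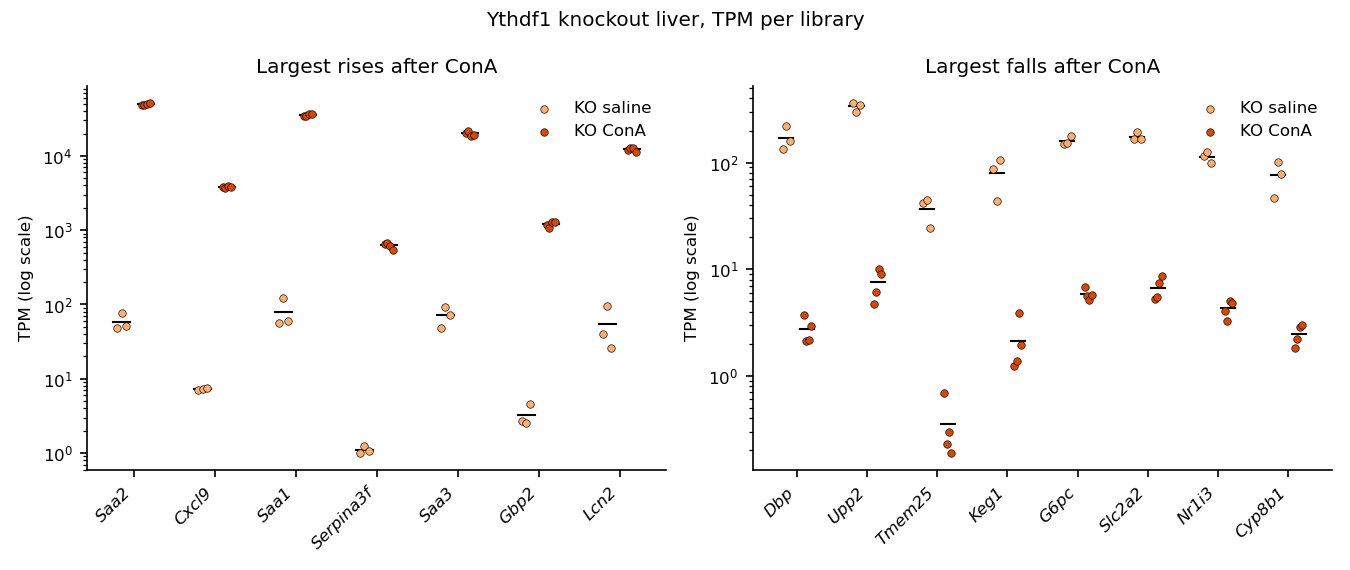
TPM on a log axis in the 3 KO saline and 4 KO ConA libraries for 7 of the 8 genes with the largest rise (left) and the 8 with the largest fall (right) among called genes with non-overlapping groups and a mean of at least 5 TPM. Each point is a library and each bar a group mean; the saline and ConA points do not overlap for any of the 15 genes, which were chosen for that.

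Other secreted proteins were among the largest rises. Serpina3f, a serine protease inhibitor of the antichymotrypsin cluster, rose from 1.01, 1.25 and 1.06 TPM to 660, 670, 618 and 549 TPM (8.21 ± 0.12). Serpina3n of the same cluster rose from between 141 and 179 TPM to between 7412 and 9300 TPM (5.65). For both serpins the lowest ConA library was far above the highest saline library.

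The list of negative acute-phase and carrier proteins moved the other way. Synthesis of some of its members, albumin among them, is known to decline in inflammation. The list also holds other secreted proteins, and Serpina1a (-0.78), Serpina1b (-0.56) and Kng1 (-0.76) are counted in the falls. Of 20 tested genes 16 fell and 2 rose, with a median change of -1.02. Albumin (Alb) fell from 76489, 67524 and 62303 TPM to 30310, 42326, 35949 and 31501 TPM, a change of -0.98 ± 0.19 (adjusted p = 0.00095). Apoa2, an apolipoprotein of high-density lipoprotein, fell from 42693 to 54804 TPM to between 11490 and 18338 TPM (-1.85). Igfals, which holds insulin-like growth factors in the circulation, fell from 106 to 144 TPM to between 7.58 and 12.4 TPM (-3.62). Serpina6, the carrier of corticosteroids, fell by 2.01 on the log2 scale. The exceptions were Trf, the iron carrier transferrin, which rose by 1.03 and of whose 50-base stretches 20.2% are unique, and Apoa4, an intestinal and hepatic apolipoprotein.

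Many of the chemokines, which attract leukocytes, were scarce in KO saline, but Cxcl12 was at 115 to 128 TPM. Of 26 listed genes 22 were tested, and 11 of these were below 1 TPM in every saline library, so that they were tested only because they were high after ConA. 19 rose and 2 fell. The median over all 25 members in the tables was 1.69. Cxcl9, an interferon gamma-induced ligand of CXCR3 on T cells, was listed at 6.95, 7.19 and 7.50 TPM in KO saline and at 3848, 3712, 3949 and 3812 TPM in KO ConA (8.87 ± 0.10; adjusted p = 1.1e-12). The spread within each group was small against the difference. Cxcl10, another CXCR3 ligand, rose from 3.61, 4.79 and 5.07 TPM to 854, 816, 983 and 1009 TPM (7.39 ± 0.13). The neutrophil attractants Cxcl1 and Cxcl2 rose from 3.03 to 8.60 and 0 to 0.15 TPM to between 358 and 465 and between 44.0 and 98.2 TPM. Ccl2, which recruits monocytes, rose from 0.21 to 0.69 TPM to between 120 and 266 TPM (6.80). The chemokines that fell were Cxcl12, a homeostatic chemokine of the liver vasculature (115 to 128 TPM down to 14 to 31.7 TPM, -2.40), and Ccl27a (-2.73), of whose 50-base stretches only 30.8% are unique. The B cell attractant Cxcl13 was not called (0.49, adjusted p = 0.127).

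Cytokines and their receptors changed in both directions, with 24 of 34 tested genes higher and 5 lower. Of the 34 genes 7 were below 1 TPM in every saline library and were tested only because they were higher after ConA. Ifng, which encodes interferon gamma, was listed at 0.07, 0.07 and 0 TPM in KO saline and at 6.05, 6.28, 12.1 and 5.02 TPM in KO ConA (2.93 ± 0.24; adjusted p = 2.1e-06). Tnf was listed at 0.05 TPM in each saline library and at 5.03, 4.45, 3.96 and 2.30 TPM in KO ConA (2.20). Il1b rose from 0.37 to 0.58 TPM to between 5.15 and 10.3 TPM (2.64). The saline libraries held almost none of these 3 transcripts, and for such low genes the log2(TPM + 1) scale understates the change. Il6 stayed at or below 0.59 TPM in all 7 libraries and was not tested, and Il1a was not called (0.32, adjusted p = 0.185). Il1rn, the interleukin-1 receptor antagonist, rose most in the list, from 0.99, 2.07 and 1.95 TPM to 285, 318, 295 and 474 TPM (7.0 ± 0.21). The decoy receptor Il1r2 rose from at most 0.07 TPM to between 6.02 and 13.6 TPM (3.48), and it is also in the neutrophil marker list. The signaling receptor Il1r1 rose about as much as Il1r2 (3.43), with KO ConA 3 at 76.2 TPM below the 140 to 157 TPM of the other ConA libraries. Its accessory chain Il1rap fell by 1.53.

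Of the 28 tested genes for NF-kB subunits, kinases and feedback, 26 rose and none fell, with a median over the 29 listed of 2.09. NF-kB is a transcription factor that is released when its inhibitor IkB is degraded. Nos2, the inducible nitric oxide synthase, rose from at most 0.06 TPM to 21.9, 54.4, 40.3 and 27.9 TPM (5.09). Tnfaip3, which encodes the feedback inhibitor A20, rose from 0.29 to 0.57 TPM to between 28.9 and 36.7 TPM (4.67). Icam1, an adhesion molecule that leukocytes bind, rose from 7.59 to 8.43 TPM to between 198 and 237 TPM (4.57). Nfkbia, the gene of IkB alpha, rose from 37.0, 39.4 and 39.5 TPM to 125, 145, 156 and 158 TPM (1.89 ± 0.12), and Rela, the p65 subunit, from 21.3 to 24.1 TPM to between 93.6 and 103 TPM (2.04 ± 0.11). Subunit, inhibitor and target stood higher after ConA in these 5 examples. Of the 28 tested genes 4 were below 1 TPM in every saline library and entered the test through their ConA level.

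Genes of the JAK-STAT pathway, which carries signals of interferons and of the interleukin-6 family, were called less uniformly. 15 of 23 tested genes rose and none fell. Of the 23 genes 2, Socs1 among them, were below 1 TPM in every saline library and were tested only through their ConA level. Stat3, which carries interleukin-6 signals to acute-phase genes, rose from 16.2, 18.7 and 18.2 TPM to 116, 126, 111 and 130 TPM (2.70 ± 0.11). The largest rises of the list were those of the feedback inhibitor genes Socs1 and Socs3. Socs1 increased from 0.74 to 0.93 TPM to 93.1, 82.3, 136 and 142 TPM (5.91) and Socs3 from 2.58 to 2.98 TPM to 51.6, 57.5, 102 and 114 TPM (4.38). The 8 tested genes that were not called were Stat2, Stat5b, Stat6, Tyk2, Pim3 and the feedback genes Socs2, Socs5 and Socs6.

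Interferon-induced genes rose nearly throughout: 35 of 39 tested genes were higher and 1 was lower, with a median of 2.98 over the 40 listed genes in the tables. Of the 39 genes 2 were below 1 TPM in every saline library and were tested only through their ConA level. Gbp2, a guanylate-binding GTPase that acts against intracellular microbes, rose from 2.72, 2.52 and 4.59 TPM to 1165, 1056, 1300 and 1273 TPM (8.16 ± 0.16; adjusted p = 1.1e-10). The GTPase genes Tgtp1 (7.23) and Gbp10 (5.93) rose as well, but only 8.6% and 17.5% of their 50-base stretches are unique, so that their reads can be shared with close relatives. The interferon regulatory factor Irf1 rose from 15.3, 18.0 and 15.7 TPM to 366, 425, 378 and 376 TPM (4.49 ± 0.11), and Irf8 from 2.77 to 3.76 TPM to between 85.8 and 176 TPM (4.78). Irf3, the sensor-activated factor that is present before infection, was the member that fell (75.8, 89.2 and 80.2 TPM to 47.5, 42.6, 41.1 and 43.7 TPM, -0.89 ± 0.11).

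Antigen presentation changed in part. Of 23 tested genes 13 rose and 1 fell. The peptide transporters Tap1 and Tap2 rose by 3.73 and 2.44 and the immunoproteasome subunit Psmb9 by 2.73. The class I heavy chain H2-D1 rose from 545 to 618 TPM to between 1657 and 1872 TPM (1.58), while the class I heavy chain H2-K1 was not called. B2m, the light chain shared by class I molecules, fell from 6274, 6110 and 4809 TPM to 2918, 3107, 3067 and 2796 TPM (-0.94 ± 0.14). The class II genes H2-Aa (-0.46, adjusted p = 0.172) and H2-Ab1 (-0.08, adjusted p = 0.792) were not called. H2-Ab1 was at 19.9 to 25.2 TPM in KO saline against 15.2 to 35.1 TPM in KO ConA, so that the groups overlapped.

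Immediate early genes and genes of ERK feedback, which are known to switch on within minutes of a growth or stress signal, were higher in 32 of 37 tested genes and lower in 1, Spry1. Of the 37 genes 9 were below 1 TPM in every saline library and were tested only through their ConA level. Ier3 rose from 0.94 to 1.4 TPM to 88.0, 147, 233 and 190 TPM (6.15). Btg2, an antiproliferative gene, rose from 2.20 to 4.15 TPM to 137, 185, 370 and 394 TPM (5.91), and the stress factor Atf3 from 0.73 to 1.17 TPM to 70.1, 81.5, 188 and 151 TPM (5.84). In each of the 3 genes KO ConA 3 and 4 stood above KO ConA 1 and 2. The same held for 22 of the 37 tested genes of the list (59.5%), against 10.9% of all tested genes, for which the reverse order was found in 52.2%. It was not particular to these genes, since the share was 79.7% for oxidative phosphorylation, 50% for fatty acid oxidation, 46.5% for conjugation enzymes and 46.2% for the urea cycle list. The kinase gene Mapk3, which encodes ERK1, fell from 22.7, 26.3 and 31.7 TPM to 13.5, 11.8, 12.6 and 11.3 TPM (-1.06 ± 0.15).

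Promoter sequences of the responding genes were taken from RefSeq (GRCm38.p6), with the 250 bases before each annotated start. Windows were at hand for 8858 of the tested genes, with several windows for some. 5 motifs were searched on both strands, namely NF-kB (GGG, any 2 bases, TTTCC), the interferon gamma-activated sequence GAS (TTCNNNGAA), the interferon-stimulated response element ISRE (GAAA, any 2 bases, GAAA), AP-1 (TGANTCA) and the heat shock element (GAANNTTC). The following stretches of 80 bases are shown because their genes rose and hold 1 or more of these motifs, in capitals, 5′ to 3′ on the strand of the gene. They were chosen after the values were seen, and a match of letters does not show that a factor was bound. Other windows went the other way. Those of the rising genes Saa1, Saa2, Cxcl9 and Lcn2 held none of the 5 motifs, nor did a second window of Irf1. Those of the falling genes Keg1 and Dbp held GAS and that of Nr1i3 held AP-1. The windows of Saa1, Dbp and Nr1i3 reach into the annotated span of the gene, and the GAS of Dbp lies inside that span. For Saa1 and Saa2 the bases after the start were not found in a transcript of the gene. These windows may thus not be the promoters in use.
Cxcl1, chr5:90891156-90891235, + strand, 2 NF-kB motifs: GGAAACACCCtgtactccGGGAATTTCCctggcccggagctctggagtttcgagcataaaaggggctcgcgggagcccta
Irf1, chr11:53769924-53770003, + strand, GAS: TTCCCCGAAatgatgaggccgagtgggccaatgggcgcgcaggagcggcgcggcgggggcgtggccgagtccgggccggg
Serpina3f, chr12:104214423-104214502, + strand, GAS: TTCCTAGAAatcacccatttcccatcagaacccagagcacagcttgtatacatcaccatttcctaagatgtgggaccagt
Gbp2, chr3:142620561-142620640, + strand, AP-1 and then ISRE: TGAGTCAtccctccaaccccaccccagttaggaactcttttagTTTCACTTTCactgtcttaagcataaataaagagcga
Socs1, chr16:10785540-10785619, - strand, 2 overlapping ISRE motifs: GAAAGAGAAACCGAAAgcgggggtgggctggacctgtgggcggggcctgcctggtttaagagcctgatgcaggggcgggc

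Among 11308 windows of all tested genes, 1.48% held the NF-kB motif, 6.01% GAS, 2.80% ISRE, 4.66% AP-1 and 5.05% the heat shock element. Among the 475 windows of genes that rose by 2 or more, the shares were 5.05%, 11.4%, 8.42%, 8.84% and 6.32%. Among the 431 windows of genes that fell by 2 or more they were 1.16%, 5.10%, 2.78%, 5.10% and 3.71%. The rising genes thus held each motif more often than all tested genes and the falling genes about as often, with the smallest difference for the heat shock element. In the interferon list 44.7% of 38 windows held ISRE and 34.2% held GAS, in the chemokine list 23.5% of 17 windows held the NF-kB motif, and in the acute-phase list 30.4% of 23 windows held GAS, 30.4% AP-1 and 13% the NF-kB motif. In the immediate early list no motif exceeded 7.89% of 38 windows. These shares are descriptions without a test, and related genes in clusters share promoter sequence.

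**Figure D3:**
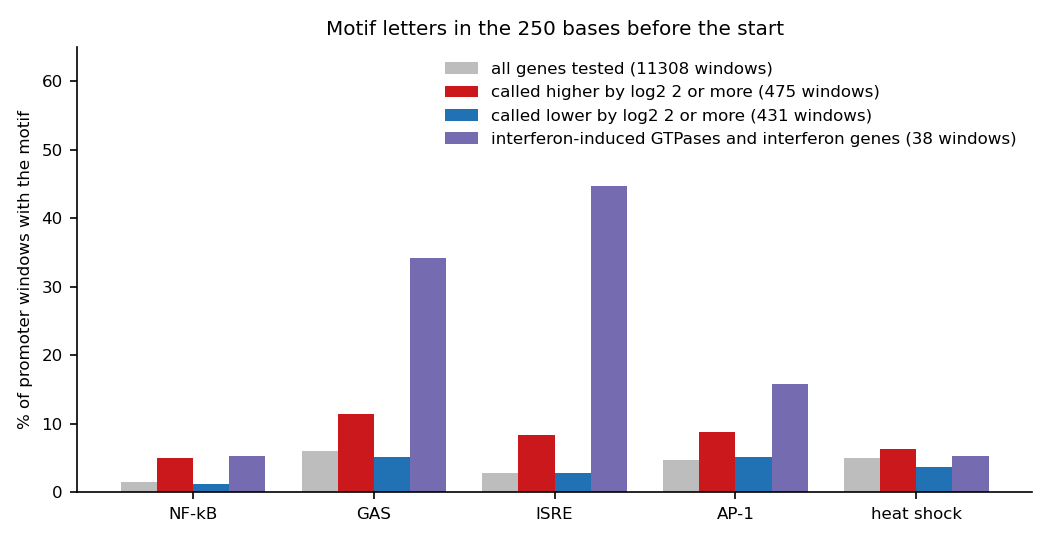
Percentage of promoter windows (vertical axis, from 0) that hold each of 5 motifs (horizontal axis) for all tested genes, genes called higher or lower by a log2 change of 2 or more, and the interferon list. ISRE was found in 2.80% of all windows, 8.42% of those of rising genes, 2.78% of those of falling genes and 44.7% of the interferon list.

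Against this induction, genes of hepatocyte metabolism fell. Among 28 tested genes of bile acid synthesis and transport 20 fell and 2 rose. Cyp7a1, the rate-limiting enzyme of bile acid synthesis, fell from 26.3, 21.5 and 17.7 TPM to 0.06, 0.12, 0.09 and 0.11 TPM (-4.37 ± 0.17; adjusted p = 9.2e-09). Cyp8b1, which sets the share of cholic acid, fell from 46.9, 102 and 79.0 TPM to 1.81, 2.24, 2.86 and 3.03 TPM (-4.41 ± 0.24). The uptake carrier Slc10a1 fell from 498, 584 and 740 TPM to 54.1, 49.7, 69.3 and 53.9 TPM (-3.39). The synthesis genes Cyp7b1, Cyp27a1, Cyp39a1 and Acox2 were not called. The regulators Nr1h4, the bile acid receptor, and Nr0b2, its target repressor, also fell by 2.71 and 3.31. The efflux subunit Slc51b rose (1.14, adjusted p = 0.034), with overlapping groups and with KO ConA 3 highest at 22.5 TPM. Its change was 0.74 without KO ConA 3, 0.83 without KO saline 1, 1.16 without KO saline 2 and 1.16 without KO ConA 4, and it was called in none of these 4 fits, nor under median-ratio rescaling. The other member that rose was Baat, which conjugates bile acids with amino acids.

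Of 48 tested cytochrome P450 genes 37 fell and 2 rose, with a median change of -1.17 over the 51 in the tables. Cyp4f15 fell from 106 to 116 TPM to between 11.9 and 15.2 TPM (-2.98). Cyp2a4 and Cyp2a5, near copies of each other that act on coumarin and steroids, fell by 2.98 and 2.63 on the log2 scale. Cyp3a11, the main drug-metabolizing enzyme of its family in mice, fell from 2429, 2622 and 4920 TPM to 1547, 1647, 1267 and 1202 TPM (-1.17 ± 0.23). Cyp2b13 fell by 2.33 and Cyp2b9 by 1.26, but Cyp2b10, a drug-inducible relative, rose from 25.0, 11.5 and 31.9 TPM to 88.3, 74.4, 34.2 and 63.1 TPM (1.5), as did the low Cyp3a16 (1.73). Nr1i3, the receptor CAR that is known to drive Cyp2b10, fell from 117, 126 and 100.1 TPM to 4.10, 3.25, 5.02 and 4.84 TPM (-4.45 ± 0.16). The receptor and this target therefore moved in opposite directions.

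Conjugation enzymes, which attach sulfate, glucuronate, glutathione or methyl groups, fell in 35 of 43 tested genes and rose in 1. Inmt, an amine methyltransferase, fell from 986, 1042 and 1383 TPM to 57.0, 65, 113 and 74.3 TPM (-3.89 ± 0.21). The glutathione transferases Gstt2 and Gstm4 fell by 2.86 and 2.53. Nnmt, which methylates nicotinamide, was the member that rose (0.98). Of 39 tested genes of the urea cycle and of amino acid breakdown 29 fell and 4 rose. Cth, which makes cysteine from cystathionine, fell from 555, 610 and 583 TPM to 46.8, 37.5, 60.7 and 55.5 TPM (-3.54 ± 0.16). The urea cycle enzyme Otc fell by 1.77, the histidine-degrading Hal by 2.57 and the proline-degrading Prodh by 2.35 on the log2 scale.

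Glucose metabolism changed in both directions. In the list of 31 tested genes 15 rose and 12 fell, with 2 of the 31 below 1 TPM in every saline library and tested only through their ConA level. G6pc, the last step of glucose release, fell from 148, 153 and 179 TPM to 6.86, 5.59, 5.12 and 5.77 TPM (-4.56 ± 0.13; adjusted p = 1.4e-09), and Slc2a2, the glucose transporter GLUT2 of hepatocytes, from 167, 194 and 166 TPM to 5.28, 5.47, 7.41 and 8.57 TPM (-4.54 ± 0.17). Pck1, which commits substrates to glucose synthesis, fell by 2.60 on the log2 scale. The transporter of most other tissues, Slc2a1 (GLUT1), rose from 6.44, 4.96 and 6.65 TPM to 58.2, 70.4, 106 and 94.3 TPM (3.54 ± 0.20). The glycolytic genes Pfkfb3 (4.89), Pkm (4.32) and Ldha (3.18) rose too. Igfbp1, a hepatic binding protein for insulin-like growth factors that is listed here for its control by insulin, rose from 18.0, 29.2 and 35.4 TPM to 1220, 1552, 2563 and 2729 TPM (6.12).

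Lipid genes fell in part. In fatty acid oxidation and ketogenesis 19 of 34 tested genes fell and 1 rose. The acyl-CoA thioesterases Acot3 and Acot4 fell by 3.62 and 2.56 on the log2 scale. The exception was Pdk4, an inhibitor of pyruvate oxidation, which rose from 0.72 to 1.11 TPM to between 11.7 and 34.7 TPM (3.16). In cholesterol and fatty acid synthesis 20 of 34 tested genes fell and 5 rose, among them Thrsp (-2.74), Srebf1 (-1.95) and Sc5d (-1.73) on the falling side and Insig2 (1.76), which retains the sterol sensor in the endoplasmic reticulum, on the rising side.

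Of 59 tested subunits of oxidative phosphorylation 49 fell and 1 rose, with a median change of -1.04. Ndufa6, a complex I subunit, fell from 733, 795 and 670 TPM to 150, 155, 195 and 194 TPM (-2.08 ± 0.13), Ndufb7 by 1.90 and Ndufa5 by 1.84 on the log2 scale. The exception was Atp5b, a catalytic subunit of ATP synthase (0.52, adjusted p = 0.0153), whose groups overlapped. It was not called without KO saline 1 or KO saline 2, nor under median-ratio rescaling. Ribosomal protein genes showed no common direction in TPM, with 9 of 49 higher and 17 lower and a median of -0.03. The list turned under rescaling without the acute-phase genes, to 28 higher and 3 lower. Rpl3 rose by 1.05 and Rpl28 fell by 0.88 under TPM, and both kept these directions in either rescaling.

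Transcription factors and nuclear receptors of hepatocytes fell in 14 of 32 tested genes (43.75%) and rose in 9 (28.12%). Over all tested genes 30.7% fell and 33.9% rose. The balance of the list turned to 9 lower and 13 higher after rescaling without the acute-phase genes. Besides Nr1i3, Cux2, a factor known from female liver, fell from 5.87 to 14.4 TPM to between 0.24 and 0.51 TPM (-3.0), and the thyroid hormone receptor Thra by 1.91. Foxa3 rose from 18.1, 18.5 and 16.9 TPM to 110, 98.5, 113 and 116 TPM (2.55 ± 0.11). Cebpd, an activator of acute-phase genes, rose from 6.50 to 10.2 TPM to between 45.5 and 56.4 TPM (2.54). Hnf4a, the central hepatocyte factor, was at 136 to 160 TPM in KO saline against 169 to 233 TPM in KO ConA and was not called (0.33, adjusted p = 0.0539). It was called without KO ConA 3 (0.38) or KO ConA 4 (0.38), and after rescaling without the acute-phase genes (0.77).

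Among the genes named by rule, the clock gene Dbp had the largest fall on the log2(TPM + 1) scale. The order differed by the ratio of mean TPM, saline over ConA, which was 62.55 for Dbp, 104.6 for Tmem25 and 229.9 for Cyp7a1. Dbp, a transcription factor of clock output, fell from 133, 223 and 160 TPM to 3.72, 2.12, 2.19 and 2.96 TPM (-5.52 ± 0.20; adjusted p = 7.9e-09). Usp2 and Per3 fell by 3.79 and 2.56, while Nfil3, a repressor of the same DNA element as Dbp, rose from 4.74 to 8.97 TPM to between 41.7 and 64.5 TPM (2.97), and Arntl, which encodes the activator BMAL1, rose from 0.42 to 0.68 TPM to between 2.88 and 5.40 TPM (1.72). In all 7 of 18 tested genes fell (38.9%) and 5 rose (27.8%), against 30.7% and 33.9% of all tested genes. The list turned to 6 lower and 8 higher after rescaling without the acute-phase genes. Of the 18 genes only Arntl was below 1 TPM in every saline library and was tested only through its ConA level. The clock time of the injections was not given in the sources used here, and its part was not tested. Among the other large falls were Upp2, a uridine phosphorylase (301 to 359 TPM down to 4.77 to 10.1 TPM, -5.35), Tmem25 (24.3 to 44.9 TPM down to 0.19 to 0.69 TPM, -4.77) and Keg1 (43.8 to 106 TPM down to 1.23 to 3.88 TPM, -4.67).

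Genes of cell death and p53 rose in 28 of 31 tested genes, and none fell, with 5 of the 31 tested only through their ConA level. Cdkn1a, the cell cycle inhibitor p21, rose from 1.82, 1.77 and 2.02 TPM to 227, 233, 345 and 290 TPM (6.56 ± 0.16; adjusted p = 3.8e-10). Mlkl, which executes necroptosis, rose from 2.19 to 4.40 TPM to between 41.6 and 51.0 TPM (3.59), and the death receptor Fas from 10 to 14.6 TPM to between 72.7 and 82.4 TPM (2.62). In the list of unfolded protein, heat shock and oxidative stress genes 26 of 37 rose and 3 fell. Of the 37 genes 2 were below 1 TPM in every saline library and were tested only through their ConA level. Hmox1, which degrades heme, rose from 4.53 to 7.83 TPM to between 227 and 365 TPM (5.29). The endoplasmic reticulum chaperones Hspa5 (3.22), Hyou1 (3.35) and Creld2 (4.80) rose, with KO ConA 3, which read lower for a typical gene, lowest of the ConA libraries in each. The falling members were Gclm, Nqo1 and Hspb1. Gclm and Nqo1, antioxidant genes controlled by NRF2, fell by 2.08 and 1.85. Other genes that NRF2 is known to control rose, among them Hmox1, Txnrd1 and Srxn1, and Gclc was not called.

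**Figure D4:**
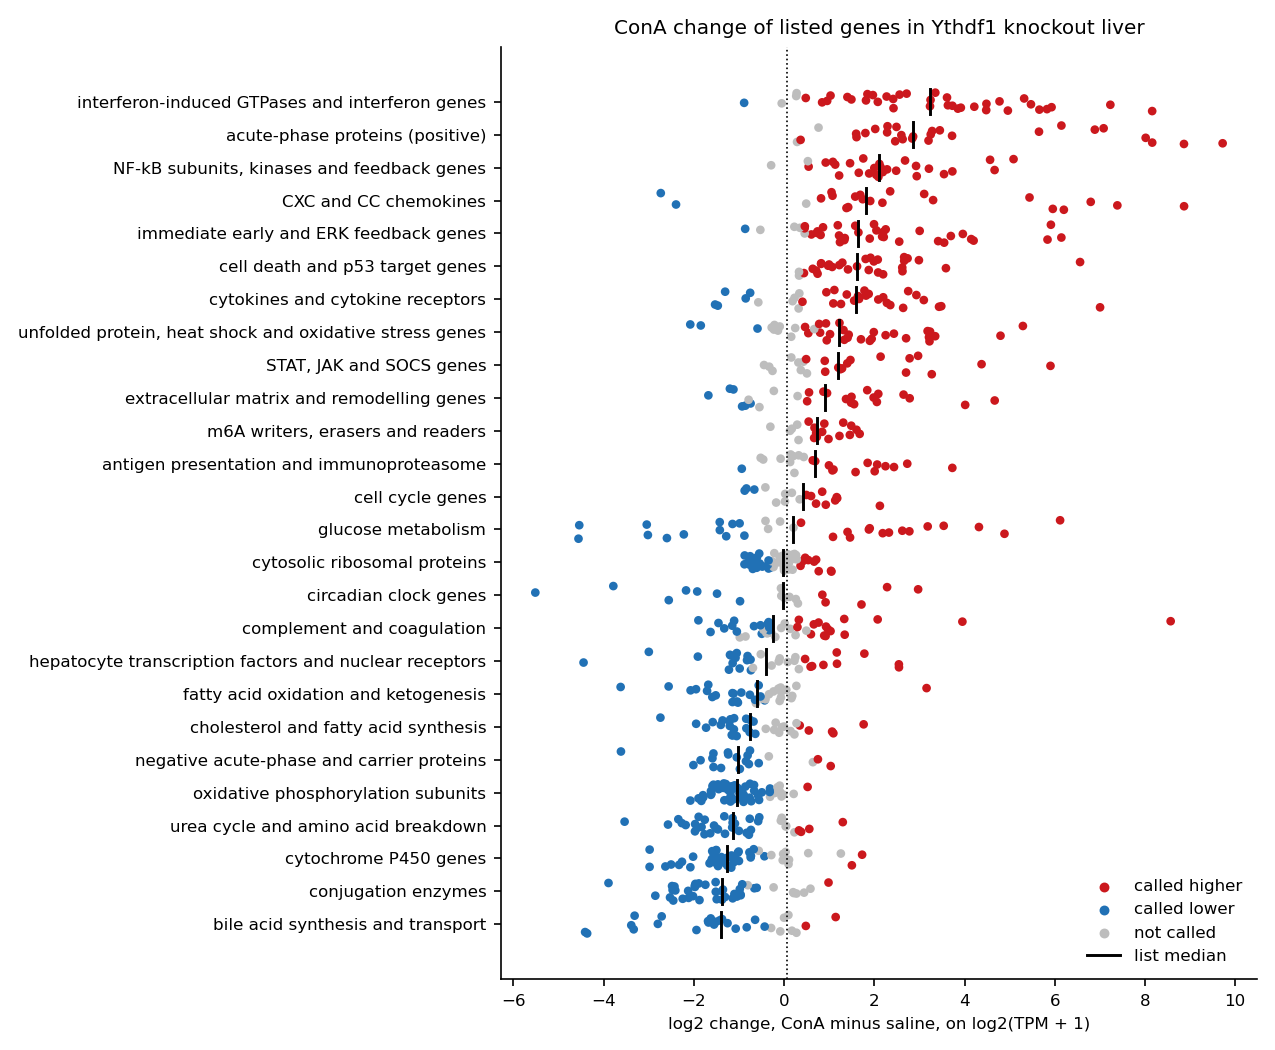
Change after ConA in KO liver (horizontal axis, log2 scale of TPM + 1, ConA minus saline) for the tested members of 26 gene lists (vertical axis). Each point is a gene, colored by its call; the black bar is the median of the tested members, from -1.4 for bile acid genes to 3.23 for interferon genes, and the dotted line the median of all tested genes (0.07).

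The m6A machinery rose moderately. Of 19 tested writers, erasers and readers 14 were called higher and none lower, with a median change of 0.71 over all 21 listed genes. Of the 19 genes 1 was below 1 TPM in every saline library and was tested only through its ConA level. Zc3h13, a writer subunit, rose from 5.42, 5.14 and 4.48 TPM to 17.2, 23.7, 9.46 and 27.6 TPM (1.68 ± 0.29), the eraser Alkbh5 from 14.5 to 17.3 TPM to between 36.5 and 63.3 TPM (1.61), and the nuclear reader Ythdc1 from 7.83 to 8.34 TPM to 27.8, 28, 17.5 and 27.1 TPM (1.49). KO ConA 3 was the lowest ConA library in all 3 genes, and it also read lower for a typical gene. Of the cytoplasmic readers, Ythdf2 rose from 7.24 to 8.19 TPM to between 9.93 and 15.6 TPM (0.67 ± 0.17; adjusted p = 0.0042). Ythdf3 was at 19.8 to 22.4 TPM in KO saline against 10 to 22.3 TPM in KO ConA and was not called (-0.30, adjusted p = 0.266). The writer Mettl3 was not called either (0.32, adjusted p = 0.161). Ythdf1 and Mettl3 were called higher without KO ConA 3, with changes of 0.33 and 0.45.

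Matrix and remodelling genes changed in both directions, with 16 of 26 tested genes higher and 6 lower, and with 7 of the 26 below 1 TPM in every saline library. Timp1, an inhibitor of metalloproteases, rose from 0.09 to 0.87 TPM to between 22.2 and 60.6 TPM (4.67), Col4a1, a basement membrane collagen, from 1.74 to 3.4 TPM to between 49.0 and 69.1 TPM (4.01), and Mmp19 fell by 1.68. The fibrillar collagen Col1a1 was not called (-0.55, adjusted p = 0.119). Of 32 listed cell cycle genes only 18 reached the level for testing, with 9 higher and 3 lower, and 2 of the 18 did so only through their ConA level. Ccnd1, the cyclin of early G1, rose from 6.39, 7.85 and 15.8 TPM to 30.5, 66.9, 49.1 and 37.1 TPM (2.12). In complement and coagulation 15 of 42 tested genes rose and 15 fell (35.7% each), near the 33.9% and 30.7% of all tested genes. This balance became 19 higher and 7 lower after rescaling without the acute-phase genes. Of the 42 genes 3 were below 1 TPM in every saline library and were tested only through their ConA level. The urokinase receptor gene Plaur rose by 3.95 and the fibrinolysis inhibitor gene Cpb2 by 2.07, while Serpind1, which encodes heparin cofactor II, fell by 1.90.

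Marker genes of cell types also changed. Of 12 tested neutrophil markers 11 rose, but 7 of the 12 were below 1 TPM in every saline library and were tested only because they were high after ConA. S100a8 was listed at 3.30, 2.06 and 1.31 TPM in KO saline and at 420, 452, 378 and 186 TPM in KO ConA (6.77 ± 0.30), and S100a9 rose by 7.26 and Retnlg by 4.83. KO ConA 4 was the lowest of the ConA libraries for these 3 genes, and the summed level of the 14 markers was 5.56 to 11.1 TPM in KO saline against 437 to 1008 TPM in KO ConA. Ly6g, the marker that defines mouse neutrophils, was not called (1.61 to 2.31 TPM against 1.15 to 2.47 TPM). Of 7 tested monocyte markers 6 rose and 1 fell, with 3 of the 7 tested only through their ConA level. Of 15 T and NK cell markers 6 were tested, 4 of them only through their ConA level, and 4 rose, among them the granzyme gene Gzmb (0.22 to 0.57 TPM up to 4.68 to 11.1 TPM, 2.71). The defining T cell marker Cd3e stayed between 0.21 and 0.57 TPM and was not tested, and no B cell marker reached the level for testing.

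Markers of resident cells fell or did not move together. Of 10 Kupffer cell markers 5 fell and none rose, and their sum went from 68.7 to 111 TPM to between 11.1 and 30.8 TPM. Clec4f fell from 27.0, 11.1 and 21.0 TPM to 4.41, 3.34, 7.40 and 1.03 TPM (-2.13 ± 0.43), and Vsig4 and Slc40a1, an iron exporter also found outside these cells, by 2.08 and 2.60. The Kupffer cell markers Adgre1 (-0.10), Timd4 (-0.14), Marco (0.60), C6 (-0.37) and Folr2 (-0.75) were not called. Of 11 sinusoidal endothelial markers 5 fell (45.45%), among them Clec4g (-2.52), and 3 rose (27.27%). Over all tested genes 30.7% fell and 33.9% rose. The 3 that rose were Lyve1 (1.98), Cdh5 (1.32) and Pecam1 (1.20), while Stab2 was not called (0.11, adjusted p = 0.606). Of 9 stellate cell markers 4 fell, among them Lrat, which stores vitamin A (-1.46), and none rose, which became 2 and 2 after rescaling without the acute-phase genes. Of 5 tested cholangiocyte markers, 1 of them tested only through its ConA level, 1 rose and 1 fell, with Krt19 not called (-0.19, adjusted p = 0.684). All 5 erythroid markers fell. Hba-a1 fell by 2.03 on the log2 scale, with KO saline 1 at 6225 TPM against 932 and 1537 TPM in the other saline libraries; without KO saline 1 its change was -1.24 and it was not called. None of 3 tested platelet markers was called, and Ppbp was at 1.16 to 5.70 TPM in KO saline against 2.56 to 3.49 TPM in KO ConA. Of 10 hepatocyte markers 7 fell and 2 rose, which turned to 3 and 3 after rescaling without the acute-phase genes. The part of these shifts in cell content in the results above was not tested.

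The response was then set against that of WT liver, to ask whether it differed between genotypes. The test was the interaction, the KO change minus the WT change, over all 14 libraries. It called 541 of 11327 genes (4.78%), 299 with a more positive change in KO (2.64%) and 242 with a more negative one (2.14%). The count changed with the libraries used. WT saline 2 and 3 differed from each other by a median absolute log2 ratio of 0.088, the smallest of any pair in a group. With this pair averaged into 1 sample the interaction called 28 of 11291 genes (0.248%), 19 positive (0.168%) and 9 negative (0.0797%), and all 28 were among the 541. Leaving out KO saline 1 gave 35 calls, KO saline 2 gave 54, KO ConA 4 gave 82 and KO ConA 2 gave 186. Of the 541 genes 474 were also called in the KO response. Of these, 226 rose in KO with a change more positive than in WT, and 207 fell in KO with a change more negative than in WT. The direction of the WT change was not part of these counts, and both tests share the KO libraries. Few of the interactions within gene lists remained with the pair averaged. The immediate early list had 17 positive interactions, of which 2 remained with the pair averaged, and the oxidative phosphorylation list 11 negative ones, of which none remained.

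Those 2 immediate early genes were Egr1 and Maff. Egr1, a zinc finger factor induced by ERK, was at 2.89, 2.71 and 2.76 TPM in KO saline and 34.3, 26.6, 117 and 175 TPM in KO ConA (4.15 ± 0.54), but at 16.6 to 25.1 TPM in WT saline against 11.5 to 20.4 TPM in WT ConA. The interaction was 4.34 (adjusted p = 0.0103, and 0.0353 with the pair averaged). The KO saline libraries lay below the WT saline ones and the KO ConA libraries above the WT ConA ones, so that both ends of the change differed. Maff rose from 3.33 to 6.62 TPM to between 51.0 and 86.2 TPM in KO, and from 7.02 to 9.41 TPM to between 26.4 and 35.1 TPM in WT (interaction 1.89). Fos had a like pattern with less certainty, at 8.06, 8.02, 33.0 and 31.1 TPM in KO ConA against 1.87 to 4.14 TPM in WT ConA (interaction 2.85, adjusted p = 0.0279, and 0.0847 with the pair averaged).

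Several secreted proteins and metabolic genes also differed both ways. Serpina3f was at 1.01 to 1.25 TPM in KO saline against 549 to 670 TPM in KO ConA, against 2.85 to 4.76 and 252 to 416 TPM in WT (interaction 2.08, adjusted p = 0.0011). Serpina3n, at 141 to 179 and 7412 to 9300 TPM in KO, was at 346 to 435 and 6071 to 6771 TPM in WT (1.66), and Serpina3m had an interaction of 2.22. In these serpins the saline level was lower and the ConA level higher in KO than in WT. Igfbp1 (2.78), Slc2a1 (1.71), Foxa3 (1.5) and Mid1 (2.21) had the same arrangement in their means, since the KO saline mean was the lower and the KO ConA mean the higher of the genotypes for each. Cyp7a1 differed in its saline level. It was at 66.8 to 72.5 TPM in WT saline against 17.7 to 26.3 TPM in KO saline, and at 0.34 TPM or less in all 8 ConA libraries. Its fall was smaller in KO (interaction 1.59, adjusted p = 0.0020).

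**Figure D5:**
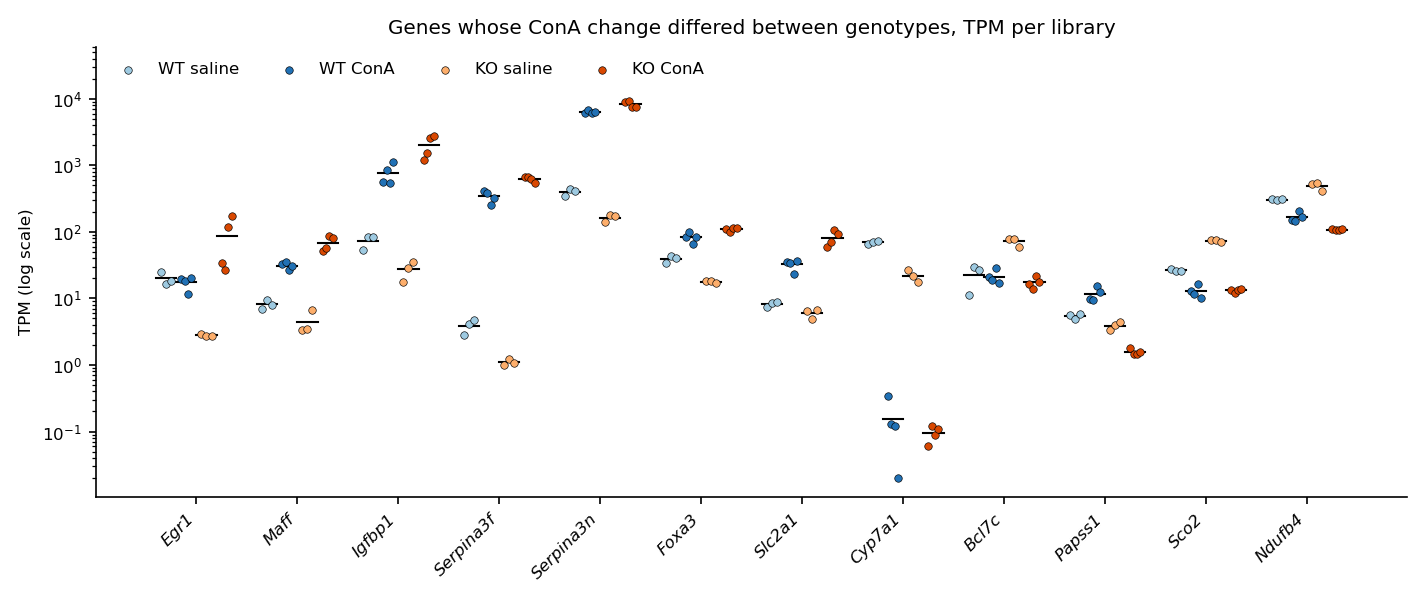
TPM on a log axis in all 14 libraries for 12 genes whose ConA change differed between genotypes, both in the 14-library fit and with WT saline 2 and 3 averaged. Points are libraries and bars group means; Egr1 in KO rose from at most 2.89 TPM to between 26.6 and 175 TPM, while in WT it stayed between 11.5 and 25.1 TPM.

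On the negative side, Ndufb4, a complex I subunit, fell from 530, 544 and 416 TPM to 110, 108, 107 and 109 TPM in KO and from 301 to 309 TPM to between 147 and 208 TPM in WT (-1.31). Sco2, which helps to assemble cytochrome oxidase, fell from 70.3 to 76.7 TPM to between 12 and 14 TPM in KO and from 25.9 to 27.8 TPM to between 10.2 and 16.6 TPM in WT (-1.38), but only 12.3% of its 50-base stretches are unique. Papss1, which makes the sulfate donor, fell in KO (3.36 to 4.41 TPM down to 1.45 to 1.83 TPM) and stood higher after ConA in WT (4.94 to 5.92 TPM against 9.45 to 15.1 TPM), an interaction of -1.88. Bcl7c fell by 1.99 on the log2 scale in KO, from 59.4 to 79.3 TPM, while its WT libraries spanned 11.1 to 29.3 TPM in saline and 16.8 to 28.4 TPM in ConA (interaction -2.0). D17H6S56E-5 rose less in KO (2.08, interaction -2.64). Its KO saline level, 15 to 26.0 TPM, was above the 1.86 to 2.42 TPM of WT saline, and its ConA levels overlapped. The saline levels of KO and WT are therefore given beside these differences, and a difference in the response cannot be told apart from a difference in the resting level where the ConA levels met.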

How the data were processed

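Liver RNA of 14 mice was sequenced on a BGISEQ-500 with single-end reads of 50 bases. The authors deposited one table of TPM per library over 17656 genes. For the step from reads to TPM, the submitters' processing notes name Bowtie2 and RSEM 1.3.1 with GRCm38.p6, while the study's methods name STAR and HTSeq. The accounts differ and were not reconciled. Reads per library are not used here, since TPM holds no depth.

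From these values log2(TPM + 1) was compared between KO ConA (n = 4) and KO saline (n = 3) with limma 3.58.1 (lmFit, eBayes with trend, two-sided) in R 4.3.3, with p-values adjusted by Benjamini-Hochberg over all tested genes. The interaction used all 14 libraries and genes of 1 TPM or more in at least 3. The tests were also run on simulated data with independent noise and few changed genes, unlike these data, and no result here rests on that. Genes were named by rule: the 8 largest rises and falls among called genes with non-overlapping groups and a mean of 5 TPM or more, 3 called members of each list and 1 in the other direction, the 5 largest interactions each way, 15 genes measured in the study and 11 cell markers. Any gene named outside it, the list exceptions included, was chosen after its values were seen. Some genes that the rule names are not reported here. The members, the 26 gene lists, the 11 marker lists and the tests were chosen with earlier results of these data known. Replicate numbers paired no samples. Promoter windows, transcripts and gene positions came from RefSeq and GENCODE tables. The alternatives tried were 0.1 as the pseudocount, a minimum of 5 TPM or no minimum, 2 rescalings, a robust eBayes, a replicate block, all 14 libraries in the fit, a log2 change of at least 1, WT saline 2 and 3 averaged, and each library left out in turn.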

Additional observations from a re-analysis of the deposited data

Results flagged for a closer look

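The ConA change differed between genotypes by the interaction test of limma (adjusted p under 0.05 over all genes) for 43 of the 185 named genes. Over all genes the same test called 541 of 11327 (4.78%), and 28 of 11291 (0.248%) with WT saline 2 and 3 averaged. The 43 cannot be read as a share, since some named genes were chosen for a called interaction. Others were chosen for a large KO change or after their values were seen. The values here are interactions, the KO change minus the WT change on the log2 scale. For 15 of the 43 genes the interaction was also called with WT saline 2 and 3 averaged. Those with a more positive change in KO were Cyp7a1 (1.59), Egr1 (4.34), Foxa3 (1.5), Igfbp1 (2.78), Maff (1.89), Mid1 (2.21), Serpina3f (2.08), Serpina3m (2.22), Serpina3n (1.66) and Slc2a1 (1.71). Those with a more negative change in KO were Bcl7c (-2.0), D17H6S56E-5 (-2.64), Ndufb4 (-1.3), Papss1 (-1.88) and Sco2 (-1.38).

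The other 28 genes lost the call with that pair averaged. Their interactions were positive for Acot3 (2.36), Acot4 (1.26), Atf3 (1.80), Atp5b (0.95), Cpb2 (0.67), Ctse (3.51), Cyp2e1 (1.17), Dusp1 (1.77), Dusp5 (1.51), Fga (1.16), Fos (2.85), H2-Ab1 (1.3), Il1rn (2.0), Irf1 (1.06), Jun (1.04), Junb (1.16), Ldha (1.13), Pdk4 (1.95), Saa1 (1.54), Saa2 (1.12), Serpina3c (5.12) and Stat3 (0.89), and negative for Ccdc152 (-2.08), Inmt (-1.55), Ndufa5 (-0.84), Ndufa6 (-0.72), Ndufb7 (-1.15) and Ptgds (-2.49). The part of resting levels in these differences was not tested.

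A single KO ConA library stood apart from the other 3 of its group by Dixon's criterion in 4 of 185 named genes, where chance alone gives such a gap in about 1 of 20 groups. Il1r1 was at 76.2 TPM and Ythdc1 at 17.5 TPM in KO ConA 3, both below the rest of the group, in a library that read lower for a typical gene. In KO ConA 1, Tnfaip3 was lowest at 28.9 TPM and Ly6g highest at 2.47 TPM.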

How the results depend on the processing

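The ConA response in KO liver had between 5382 and 8050 called genes under the other pseudocount, filters, rescalings, robust fit and the fit of all 14 libraries. Requiring a log2 change of at least 1 gave 3453 genes, 1724 higher and 1729 lower. Leaving out 1 library gave 5888 to 7814 calls, 3140 to 4440 higher and 2681 to 3491 lower. Replicate numbers did not pair the samples, since deviations of same-numbered KO libraries correlated at 0.117, -0.046 and 0.061, and the fit with a replicate block called 6544 genes in the response, and 358 in the interaction, 198 positive and 160 negative.

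The interaction was less stable. It called 345 genes (166 positive) with no filter, and 28 (19 positive, 9 negative) with WT saline 2 and 3 averaged. Leaving out 1 library gave 23 to 769 calls, 16 to 482 positive and 7 to 372 negative. The lowest counts were 23 without WT saline 3 and 28 without WT saline 2. The highest were 769 without KO ConA 3 and 766 without WT ConA 4. Fewer samples enter these fits. Otherwise the cause was not tested.

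Of the named genes, 6 turned direction in some fit, none of them called in the comparison as reported. Rescaling without the acute-phase genes gave 0.35 for H2-Ab1, 0.17 for Krt19, 0.067 for Ly6g and 0.12 for Ythdf3, and the replicate block gave 0.069 for H2-Ab1. Over the fits without 1 library the change ranged from -0.32 to 0.069 for H2-Ab1, -0.64 to 0.11 for Krt19, -0.11 to 0.71 for Ppbp and -0.0285 to 0.30 for Stab2. TPM carries no depth, so counting error could not be given, and low genes are measured with unknown precision.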
